A study of Homo sapiens with 6 samples.

Results

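The cytochrome P450 family of human genes was examined in HepG2 cells after knockdown of DGUOK. Members were the protein-coding genes in the count table whose symbol starts with CYP and a digit, without CYP51A1, together with POR, the reductase that passes electrons to P450 enzymes of the endoplasmic reticulum. This gave 49 members of 34036 genes listed. Of these, 42 had a count in some library and 24 had enough counts to be tested.

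P450 enzymes carry a heme group that activates oxygen and inserts 1 of its atoms into a substrate. Hepatocytes use them to oxidize drugs and other foreign compounds, to turn cholesterol into bile acids, and to hydroxylate fatty acids, steroids and vitamins. Enzymes of the endoplasmic reticulum receive electrons from POR and cytochrome b5, and those of mitochondria receive them from adrenodoxin and its reductase. Many P450 genes are under the control of ligand-activated receptors, among them the aryl hydrocarbon receptor, PXR, CAR and FXR, and of liver-enriched factors such as HNF4A.

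HepG2 is an established line from a human hepatocellular carcinoma. The siDGUOK group received a pool of siRNAs against DGUOK, the mitochondrial kinase for purine deoxynucleosides, and the siControl group received a non-targeting siRNA. Both were lipid transfections of the same line, and RNA was collected 48 h later from 3 samples of each group. The series record calls the 3 samples of a group independent biological replicates without saying what kept them separate. P-values therefore measure only the spread between these samples, which may be technical.

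The library totals were 19065684, 18915508 and 10527216 counts in siControl replicates 1, 2 and 3. In siDGUOK replicates 1, 2 and 3 they were 18613138, 15978314 and 21334876 counts. Levels are given as CPM after TMM scaling of the library totals. All 6 samples carry the control siRNA in their treatment label, so titles were used for the groups, with the targeted gene as a check. DGUOK stood at 54.4, 53.1 and 48.2 CPM in the siControl libraries and at 9.08, 10.5 and 6.72 CPM in the siDGUOK libraries, with no overlap between the groups. It fell by 2.57 on the log2 scale (95% confidence interval −2.97 to −2.17, adjusted p = 1.64e-08 in edgeR's quasi-likelihood test).

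Some libraries stood apart in ways that bear on genes with few counts. In siDGUOK replicate 1, 21057 genes had a count, against 16205 to 17583 in the other 5 libraries, and 4863 of its genes had 1 to 5 counts, against 1052 to 2362. Endothelial markers (VWF, PECAM1, CDH5, KDR and TEK) summed to 1.66, 1.39 and 2.29 CPM in siControl replicates 1, 2 and 3 and to 4.48, 59.3 and 4.05 CPM in siDGUOK replicates 1, 2 and 3. The high sum was that of siDGUOK replicate 2. VWF was the most abundant of these genes over the 6 libraries together, a rank that rests on its 510 counts in siDGUOK replicate 2. It had 0 counts in siControl replicate 3 and siDGUOK replicate 3. KDR and TEK had 0 counts in all siControl libraries and in siDGUOK replicate 3, and of the 3 markers tested 0 were called. With no count filter PECAM1 (adjusted p = 6.47e-05 in edgeR's fit) and CDH5 (adjusted p = 0.0175 in edgeR's fit) passed, as did VWF with a replicate block (adjusted p = 0.00148 in edgeR's fit). PECAM1 also passed without siDGUOK replicate 1 (adjusted p = 0.0116 in edgeR's fit) and CDH5 without siControl replicate 3 (adjusted p = 0.00415 in edgeR's fit). Fibroblast markers summed to 12.1, 15.03 and 10.3 CPM in siControl and to 42.4, 56.1 and 21.6 CPM in siDGUOK replicates 1, 2 and 3. PDGFRB made up most of the siControl sums, and COL1A1 was the most abundant in the siDGUOK libraries. COL1A1 was called higher and PDGFRB lower, while DCN and LUM had 0 counts in all siControl libraries and in siDGUOK replicate 3. COL3A1, not tested, had 0, 1 and 0 counts in siControl replicates 1, 2 and 3 and 148, 254 and 9 counts in siDGUOK replicates 1, 2 and 3. COL1A2 was not called, but passed with a replicate block (adjusted p = 0.00608 in edgeR's fit) and without siDGUOK replicate 3 (adjusted p = 0.000693 in edgeR's fit). The call of PDGFRB was lost in edgeR's fits without siControl replicate 1, 2 or 3 or without siDGUOK replicate 1 or 3 (adjusted p = 0.0551 to 0.125). All 6 leukocyte markers were tested and 0 were called, though PTPRC passed with a replicate block (adjusted p = 0.0453 in edgeR's fit) and without siControl replicate 2 (adjusted p = 0.0143 in edgeR's fit). Their sum ran from 1614 to 1902 CPM, nearly all of it LYZ.

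Hepatocyte markers were abundant in every library, as the label of the line has it, and lower after knockdown. Their sum was 52615, 46890 and 45881 CPM in siControl replicates 1, 2 and 3 and 27241, 23743 and 22341 CPM in siDGUOK replicates 1, 2 and 3. ALB was the most abundant of them in the siControl libraries and SERPINA1 in the siDGUOK libraries. None was at 0, and 7 of the 8 were called lower, the exception being SERPINA1. In bulk RNA, fewer cells of a type and less RNA per cell cannot be told apart. The part of these marker changes in the P450 values was not tested.

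The P450 family as a whole kept a similar summed level, while 6 members changed. Over all members but POR, the summed level was 348, 433 and 402 CPM in siControl replicates 1, 2 and 3 and 398, 379 and 437 CPM in siDGUOK replicates 1, 2 and 3. The groups overlapped, and CYP27A1 was the largest single contributor. Calls needed a log2 fold change beyond 0.5 in either direction and an adjusted p below 0.05 in edgeR's quasi-likelihood test, adjusted by Benjamini-Hochberg over 14476 genes. By this rule 6 of the 24 tested members were called, where 14.1% of all tested genes were. CYP24A1 and CYP3A5 were higher, against 7.42% of all genes, and CYP19A1, CYP2J2, CYP4F2 and CYP4F3 were lower, against 6.68%. The median log2 fold change of the 24 tested members was −0.33, beside 0.02 for all genes, with 16 members negative and 8 positive. For 12 of the 24 the 3 siControl and 3 siDGUOK libraries did not overlap, against 36% of all tested genes. These counts cover the members that passed the filter on low counts and not the other 25.

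The count of 6 rested on single libraries. It was 2 without siControl replicate 2 and 2 without siDGUOK replicate 1, where CYP19A1 and CYP24A1 were the members called. The first of these fits called 2 of 27 tested members, beside 1935 of all 15280 tested genes. Over the fits that left out 1 library, all genes called ran from 1704 to 1935. The median log2 fold change of tested P450 members was −0.07 without siControl replicate 2 and −0.50 without siDGUOK replicate 3. It was −0.12 without siControl replicate 3 and −0.16 without siControl replicate 1.

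**Figure D1:**
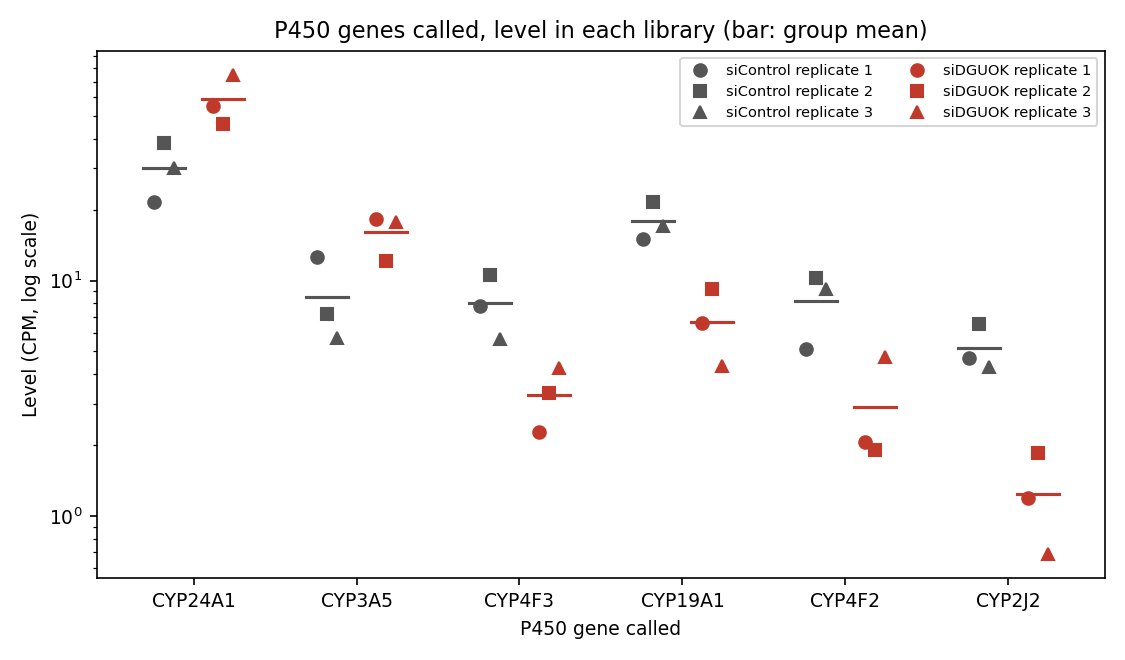
Level in CPM on a log axis of the 6 P450 genes called, with 1 point per library and a bar at each group mean. The siControl and siDGUOK libraries do not overlap for CYP24A1, CYP19A1, CYP2J2, CYP4F2 and CYP4F3, and overlap for CYP3A5.

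Levels per length differed widely between members. POR, at 75.2 CPM per kb of exon in siControl and 71.5 in siDGUOK, and CYP27A1, at 59.8 and 63.2, stood far above the others. The next were CYP2W1 with 15.6 and 12.4 CPM per kb, CYP2S1 with 8.68 and 12.3 and CYP24A1 with 7.53 and 14.8. CYP24A1 was the lowest of these 3 in siControl and the highest in siDGUOK. Of the drug-metabolizing enzymes known from adult liver, CYP1A2, CYP2C8 and CYP2E1 were near the floor of detection and had between 0 and 13 counts in any library.

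**Figure D2:**
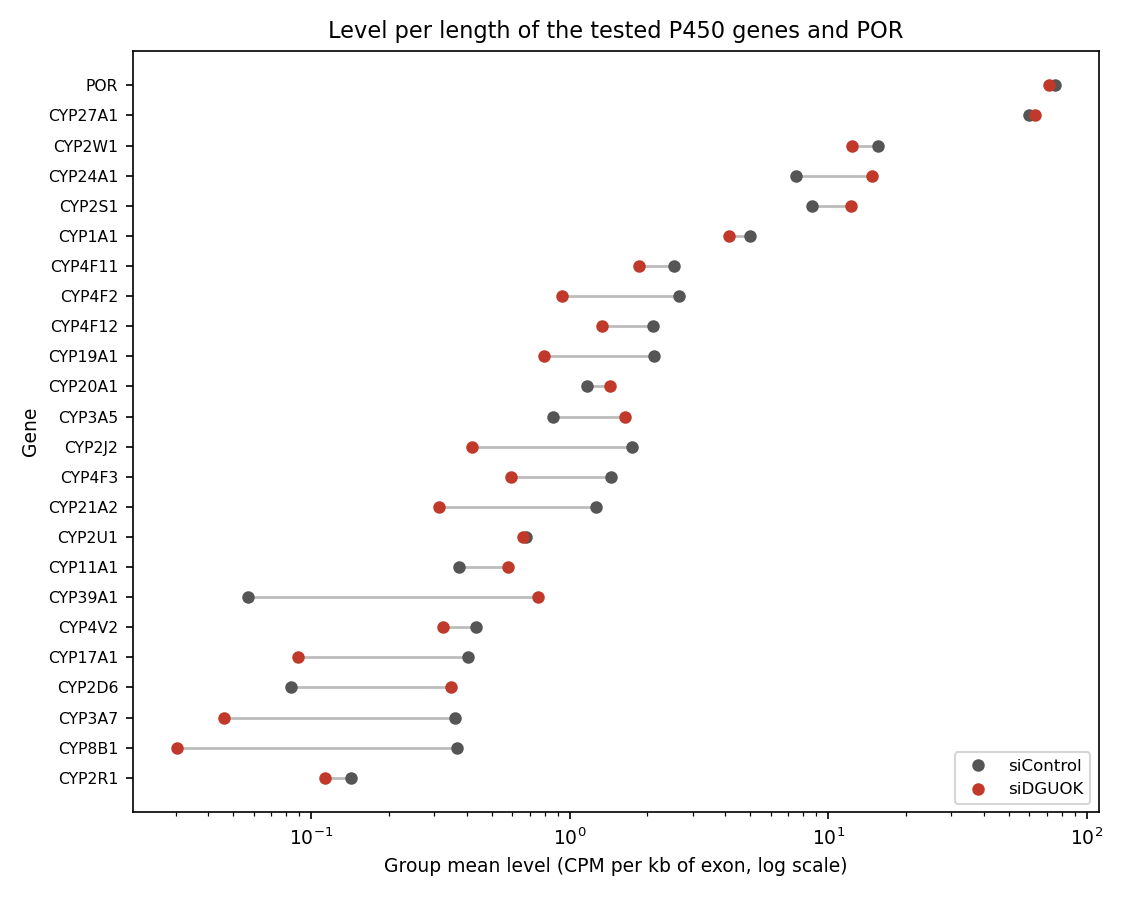
Group mean level of the 24 tested members in CPM per kb of exon on a log axis, siControl in gray and siDGUOK in red. POR and CYP27A1 lie near 70 and 60 CPM per kb, and the members with the widest gaps between groups are mostly those of lowest level.

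POR is the electron donor shared by the P450 enzymes of the endoplasmic reticulum. Its level was 452, 480 and 472 CPM in siControl replicates 1, 2 and 3 and 458, 435 and 441 CPM in siDGUOK replicates 1, 2 and 3. The groups overlapped, and the log2 fold change of −0.07 (95% confidence interval −0.22 to 0.08) did not pass edgeR's test (adjusted p = 0.55).

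In vitamin D turnover, the gene for the inactivating enzyme rose. CYP24A1 encodes the mitochondrial hydroxylase that degrades the active hormone. It stood at 21.6, 38.5 and 30.0 CPM in siControl replicates 1, 2 and 3 and at 55.3, 46.3 and 74.9 CPM in siDGUOK replicates 1, 2 and 3. Every siDGUOK library was above every siControl library. The log2 fold change was 0.97 (95% confidence interval 0.55 to 1.39, adjusted p = 0.00167 in edgeR's test), a rise of 1.96-fold. CYP24A1 was called in each fit that left out 1 library, with values between 0.75 and 1.20. Its gene lies at chr20:54153446-54173986 of GRCh38, and 0% of the 50-base stretches of its exons occur in another gene.

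The other genes of vitamin D and retinoid turnover had few counts. CYP2R1, a hydroxylase that makes the circulating form of vitamin D, had between 0 and 20 counts per library. Its log2 fold change of −0.32 did not pass the test. The direction turned to 0.29 without siControl replicate 1 and to 0.25 with a replicate block. CYP27B1, which makes the active hormone, had 8, 0 and 0 counts in siControl replicates 1, 2 and 3 and 14, 21 and 0 counts in siDGUOK replicates 1, 2 and 3, and was not tested. VDR, the receptor for that hormone, had 7, 0 and 6 counts in siControl and 22, 159 and 0 counts in siDGUOK. Both had their highest count in siDGUOK replicate 2, the library with the high endothelial sum, and VDR was not called (adjusted p = 0.0954 in edgeR's test). VDR passed without siDGUOK replicate 3 (adjusted p = 0.00983 in edgeR's fit) and with no count filter (adjusted p = 0.00727 in edgeR's fit). CYP26A1 and CYP26B1, which degrade retinoic acid, had at most 19 and 7 counts. CYP27C1 had 1 count in 1 library and CYP26C1 had 0.

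Among the P450 genes of steroid hormone synthesis, aromatase fell. CYP19A1, which turns androgens into estrogens, stood at 14.96, 21.5 and 17.1 CPM in siControl replicates 1, 2 and 3 and at 6.59, 9.17 and 4.32 CPM in siDGUOK replicates 1, 2 and 3. The lowest siControl library was above the highest siDGUOK library. The log2 fold change was −1.42 (95% confidence interval −2.03 to −0.81, adjusted p = 0.00163 in edgeR's test). It was called in each fit that left out 1 library, with values from −1.71 to −1.19. The gene lies at chr15:51208057-51338601 of GRCh38, and its exons share no 50-base stretch with another gene.

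Other steroid-forming members were low. CYP21A2, the adrenal 21-hydroxylase, had 83, 37 and 45 counts in siControl replicates 1, 2 and 3 and 27, 0 and 26 counts in siDGUOK replicates 1, 2 and 3. The groups did not overlap, but the log2 fold change of −1.99 did not pass edgeR's test (adjusted p = 0.172), and 41.7% of the 50-base stretches of its exons occur in other genes, so its counts are uncertain. CYP17A1, the 17-hydroxylase, had 9, 54 and 8 counts in siControl replicates 1, 2 and 3 and 11, 5 and 0 counts in siDGUOK replicates 1, 2 and 3. The high value was that of siControl replicate 2, and the log2 fold change of −2.19 did not pass (adjusted p = 0.348 in edgeR's test). Of its exon bases, 41.9% overlap those of WBP1L, and counting without strand leaves such reads uncertain. CYP11A1, which cleaves the side chain of cholesterol, had 9 to 97 counts with overlapping groups, and CYP11B1 and CYP11B2 had 0.

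The family 4 enzymes hydroxylate fatty acids and eicosanoids at the end of the chain. Values were negative for all 5 tested genes of this family (median −0.66), as for 7026 of all 14476 genes. CYP4F2 and CYP4F3 were called lower, against 6.68% of all genes. The summed level of the family was 32.8, 46.0 and 44.04 CPM in siControl replicates 1, 2 and 3 and 19.8, 23.5 and 25.9 CPM in siDGUOK replicates 1, 2 and 3. The groups did not overlap in this sum. For CYP4V2 the direction turned to 0.23 without siControl replicate 3, while the direction held for all 5 under the other normalizations.

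CYP4F2, which also hydroxylates vitamin K, stood at 5.13, 10.2 and 9.25 CPM in siControl replicates 1, 2 and 3 and at 2.05, 1.91 and 4.74 CPM in siDGUOK replicates 1, 2 and 3. The groups did not overlap, with siControl replicate 1 and siDGUOK replicate 3 close to each other. The log2 fold change was −1.49 (95% confidence interval −2.42 to −0.55, adjusted p = 0.0232 in edgeR's test). The call was lost in edgeR's fits without siControl replicate 2 (adjusted p = 0.109), siControl replicate 3 (0.108), siDGUOK replicate 1 (0.105) or siDGUOK replicate 2 (0.0752).

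CYP4F3, a hydroxylase of leukotriene B4, stood at 7.80, 10.5 and 5.62 CPM in siControl replicates 1, 2 and 3 and at 2.27, 3.32 and 4.23 CPM in siDGUOK replicates 1, 2 and 3. Again every siDGUOK library was below every siControl library. The log2 fold change was −1.29 (95% confidence interval −2.13 to −0.45, adjusted p = 0.0285 in edgeR's test). The call was lost in edgeR's fits without siControl replicate 1 (adjusted p = 0.0817), siControl replicate 2 (0.154), siDGUOK replicate 1 (0.118) or siDGUOK replicate 2 (0.0564). CYP4F2 and CYP4F3 are close copies: 12.03% of the 50-base stretches of CYP4F2 exons occur in CYP4F3. The counting skipped reads that map to more than 1 place, so reads that fit both genes equally were left out. How many reads of either gene this concerned was not tested.

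CYP4F2, CYP4F3, CYP4F11 and CYP4F12 lie in 1 cluster on chromosome 19. CYP4F11 stood at 5.98, 13.7 and 8.58 CPM in siControl replicates 1, 2 and 3 and at 6.48, 6.59 and 7.64 CPM in siDGUOK replicates 1, 2 and 3. Its groups overlapped, and the log2 fold change of −0.45 did not pass edgeR's test (adjusted p = 0.42). The value was −0.07 without siControl replicate 2 and −0.69 without siControl replicate 1. CYP4F12 had a log2 fold change of −0.66 (adjusted p = 0.167 in edgeR's test) and CYP4V2 one of −0.41, both with overlapping groups. In the same cluster, CYP4F22 had 5 counts in 1 siControl library and CYP4F8 had 0. CYP4B1, elsewhere in the genome, had 8 counts in siControl replicate 3 and 0 in the other libraries, and CYP4X1 had 0.

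Because CYP4F2 and CYP4F3 fell together, the start regions of both are shown, from 250 bases before to 50 after the start of the gene in RefSeq (GRCh38.p14). Of the 49 members, 35 had such a sequence, and CYP24A1 was not among them. Searched on both strands were 6 short motifs: the TATA box, CCAAT, the core of the dioxin response element and 3 forms of the nuclear receptor half-site. Capitals mark each match. The start region of CYP4F2 (chr19:15898025-15898324, minus strand) held CCAAT on the minus strand of the shown sequence at −117 and −76 from the start, and that of CYP4F3 (chr19:15641062-15641361, plus strand) held none of the 6. CCAAT was present in 34.6% of 35116 start regions of this length. A match is a description of the letters and not a site.
CYP4F2: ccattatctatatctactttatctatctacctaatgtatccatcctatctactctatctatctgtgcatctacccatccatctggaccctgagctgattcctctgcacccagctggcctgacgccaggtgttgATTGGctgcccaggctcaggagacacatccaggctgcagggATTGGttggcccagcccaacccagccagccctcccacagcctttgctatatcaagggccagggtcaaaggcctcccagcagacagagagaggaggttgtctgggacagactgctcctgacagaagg
CYP4F3: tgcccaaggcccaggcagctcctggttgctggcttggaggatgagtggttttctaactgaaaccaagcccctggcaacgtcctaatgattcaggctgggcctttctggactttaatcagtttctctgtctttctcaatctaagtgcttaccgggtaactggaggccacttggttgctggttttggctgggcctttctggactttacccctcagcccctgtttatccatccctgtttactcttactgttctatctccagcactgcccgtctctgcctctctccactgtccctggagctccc

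Among the enzymes of families 1 to 3, which oxidize drugs and other foreign compounds, CYP3A5 rose and CYP2J2 fell. Of the 8 tested genes of this group, 1 was thus called higher and 1 lower, against 7.42% and 6.68% of all genes. The other 6 were not called. CYP2J2, an epoxygenase of arachidonic acid, stood at 4.70, 6.55 and 4.29 CPM in siControl replicates 1, 2 and 3 and at 1.19, 1.85 and 0.69 CPM in siDGUOK replicates 1, 2 and 3. The groups were well apart. The log2 fold change was −2.07 (95% confidence interval −3.30 to −0.83, adjusted p = 0.0176 in edgeR's test). The call was lost in edgeR's fits without siControl replicate 1 (adjusted p = 0.051), siControl replicate 2 (0.0948) or siDGUOK replicate 1 (0.0521). Its counts ran from 15 to 123 per library.

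CYP3A5, a drug-oxidizing enzyme of liver and gut, stood at 12.6, 7.19 and 5.72 CPM in siControl replicates 1, 2 and 3 and at 18.2, 12.1 and 17.8 CPM in siDGUOK replicates 1, 2 and 3. The groups overlapped, since siControl replicate 1 was above siDGUOK replicate 2. The log2 fold change was 0.91 (95% confidence interval 0.28 to 1.53, adjusted p = 0.0398 in edgeR's test). The call was lost in edgeR's fits without siControl replicate 2 (adjusted p = 0.126), siControl replicate 3 (0.175), siDGUOK replicate 1 (0.17) or siDGUOK replicate 3 (0.115).

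The other CYP3A genes, its neighbors on chromosome 7, were not called. CYP3A4, the main drug-oxidizing P450 of adult liver, had 0 counts in each siControl library and 11, 14 and 0 counts in siDGUOK replicates 1, 2 and 3. Against a floor of 3 counts over the siControl group this was at least 7.08-fold higher, a bound that covers counting error only. It was 4.37-fold without siDGUOK replicate 2 and 11.5-fold without siDGUOK replicate 3. The counts lay in siDGUOK replicates 1 and 2, the libraries with the highest fibroblast sums, and CYP3A4 was not tested. CYP3A7, the fetal liver form, had 43, 16 and 7 counts in siControl replicates 1, 2 and 3 and 9, 0 and 0 counts in siDGUOK replicates 1, 2 and 3. Its groups did not overlap in CPM, and the log2 fold change of −2.93 did not pass edgeR's test (adjusted p = 0.242). Of its 50-base stretches, 41.9% occur in the readthrough gene CYP3A7-CYP3A51P, which had 1 count. CYP3A43 had at most 14 counts.

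PXR, the receptor encoded by NR1I2, is known to bind pairs of hormone-response half-sites in CYP3A genes. The start region of CYP3A5 held AGTTCA on the minus strand of the shown sequence at −113 from the start, and AGGTCA on the plus strand at −101. It also held CCAAT at −205 and −68. Single half-sites are common, with AGGTCA in 13.8% and AGTTCA in 10.4% of 35116 start regions and in 7 and 2 of the 19 from tested members. CYP19A1, which fell, held AGGTCA at −105. These half-sites point away from each other with 6 bases between them, and the joint pattern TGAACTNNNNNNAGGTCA was searched on both strands after these matches had been seen. It was present in 3 of 35116 start regions (0.00854%) and, of the 35 from members, in those of CYP3A4 and CYP3A5. The pattern was taken from CYP3A5, so its match there was fixed beforehand, and CYP3A4 holds a closely similar stretch. The low share is therefore no separate support for either match. CYP3A4 and CYP3A5 had a higher mean level after knockdown, with overlapping groups. CYP3A4 was not tested, and the call of CYP3A5 was lost in fits without single libraries. Their neighbor CYP3A7 had a lower mean level after knockdown, with groups that did not overlap in CPM. Any part of PXR in these levels was not tested. The stretches around the joint pattern are shown with the half-sites in capitals. They lie at chr7:99784306-99784383 for CYP3A4 and chr7:99680062-99680139 for CYP3A5 (GRCh38.p14, minus strand, RefSeq).
CYP3A4: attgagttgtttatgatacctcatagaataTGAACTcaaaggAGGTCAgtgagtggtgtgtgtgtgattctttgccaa
CYP3A5: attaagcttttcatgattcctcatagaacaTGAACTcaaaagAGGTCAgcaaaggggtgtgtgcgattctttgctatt
Binding of any factor to these stretches was not measured here.

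CYP2S1 and CYP2W1, mostly found outside adult liver, did not overlap between groups but were not called. CYP2S1 stood at 17.9, 25.0 and 27.7 CPM in siControl replicates 1, 2 and 3 and at 35.4, 34.1 and 30.6 CPM in siDGUOK replicates 1, 2 and 3. Its log2 fold change was 0.51 (adjusted p = 0.0623 in edgeR's test), and with no count filter it passed (adjusted p = 0.0464 in edgeR's fit). CYP2W1, which is known from tumors, stood at 39.0, 47.2 and 44.3 CPM in siControl and at 31.8, 35.0 and 36.7 CPM in siDGUOK replicates 1, 2 and 3. Its log2 fold change was −0.33 (adjusted p = 0.126 in edgeR's test).

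CYP1A1, the main target of the aryl hydrocarbon receptor, stood at 17.5, 14.1 and 18.5 CPM in siControl replicates 1, 2 and 3 and at 11.6, 14.7 and 15.5 CPM in siDGUOK replicates 1, 2 and 3. The groups overlapped, and the log2 fold change of −0.26 (95% confidence interval −0.73 to 0.22) did not pass edgeR's test (adjusted p = 0.502). CYP2D6, an oxidizer of many drugs, had 10, 1 and 0 counts in siControl and 11, 21 and 12 counts in siDGUOK replicates 1, 2 and 3. Its groups did not overlap, the log2 fold change of 1.94 did not pass (adjusted p = 0.474 in edgeR's test), and 51.4% of its 50-base stretches occur in other genes, mostly CYP2D7. The groups came close, with siControl replicate 1 at 0.534 CPM and siDGUOK replicate 3 at 0.552 CPM. Without siControl replicate 1 the log2 fold change was 4.41. CYP2U1 had a log2 fold change of −0.05 with overlapping groups, and so did the orphan enzyme CYP20A1 with 0.30.

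Untested genes of families 1 to 3 had few counts. CYP2B6 and CYP2E1 had 14 and 13 counts in siControl replicate 2 and at most 5 elsewhere. CYP1B1, CYP2A7 and CYP2C8 had 5, 2 and 2 counts, all in siDGUOK replicate 1, the library with the most genes at 1 to 5 counts. CYP1A2 and CYP2F1 had at most 3 and 6 counts, and CYP2C18 had 0.

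Of the bile acid enzymes, 3 were tested and 0 were called, against 14.1% of all genes, and 3 genes are too few for that count to tell them from the rest. CYP27A1, the mitochondrial sterol 27-hydroxylase, stood at 159, 191 and 185 CPM in siControl replicates 1, 2 and 3 and at 190, 177 and 199 CPM in siDGUOK replicates 1, 2 and 3. The groups overlapped, and the log2 fold change of 0.08 (95% confidence interval −0.11 to 0.27) did not pass edgeR's test (adjusted p = 0.619). CYP7A1, the rate-limiting enzyme of the classical route, had 7, 47 and 9 counts in siControl replicates 1, 2 and 3 and 0 counts in each siDGUOK library. Against a floor of 3 counts over the siDGUOK group this was at least 24.7-fold lower, a bound that again covers counting error only. The highest count was that of siControl replicate 2, without which the bound was 10.3-fold. CYP7A1 had too few counts to be tested, and it was called with no count filter and without siControl replicate 1.

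CYP8B1, the sterol 12-hydroxylase that sets the share of cholic acid, had 45, 14 and 15 counts in siControl replicates 1, 2 and 3 and 7, 0 and 0 counts in siDGUOK replicates 1, 2 and 3. The groups did not overlap, and the log2 fold change of −3.53 did not pass edgeR's test (adjusted p = 0.139) but passed in DESeq2 (adjusted p = 0.0391). In both fits CYP8B1 passed the filter on low counts through the siControl libraries. With DESeq2's shrunken fold changes CYP8B1 was at −0.42 and was not called. CYP39A1, an oxysterol 7-hydroxylase, had 10, 0 and 0 counts in siControl replicates 1, 2 and 3 and 50, 22 and 65 counts in siDGUOK replicates 1, 2 and 3. Its groups did not overlap in the other direction, with a log2 fold change of 3.58 (95% confidence interval 0.70 to 6.47, adjusted p = 0.0775 in edgeR's test). CYP39A1 passed in DESeq2 (adjusted p = 0.0103), where shrinkage left it at 0.59, and, in edgeR's fit, among genes with a mean above 1 CPM (adjusted p = 0.0388) and without siControl replicate 1 (adjusted p = 0.0111). The last of these fits compares with 2 siControl libraries at 0 counts. Group means of CYP39A1 were 0.18 CPM in siControl and 2.35 CPM in siDGUOK. It thus passed the 1 CPM filter, and the filter of the main and DESeq2 fits, through the siDGUOK libraries. CYP7B1, of the alternative route, had 4 counts in siControl replicate 3 and 0 elsewhere.

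**Figure D3:**
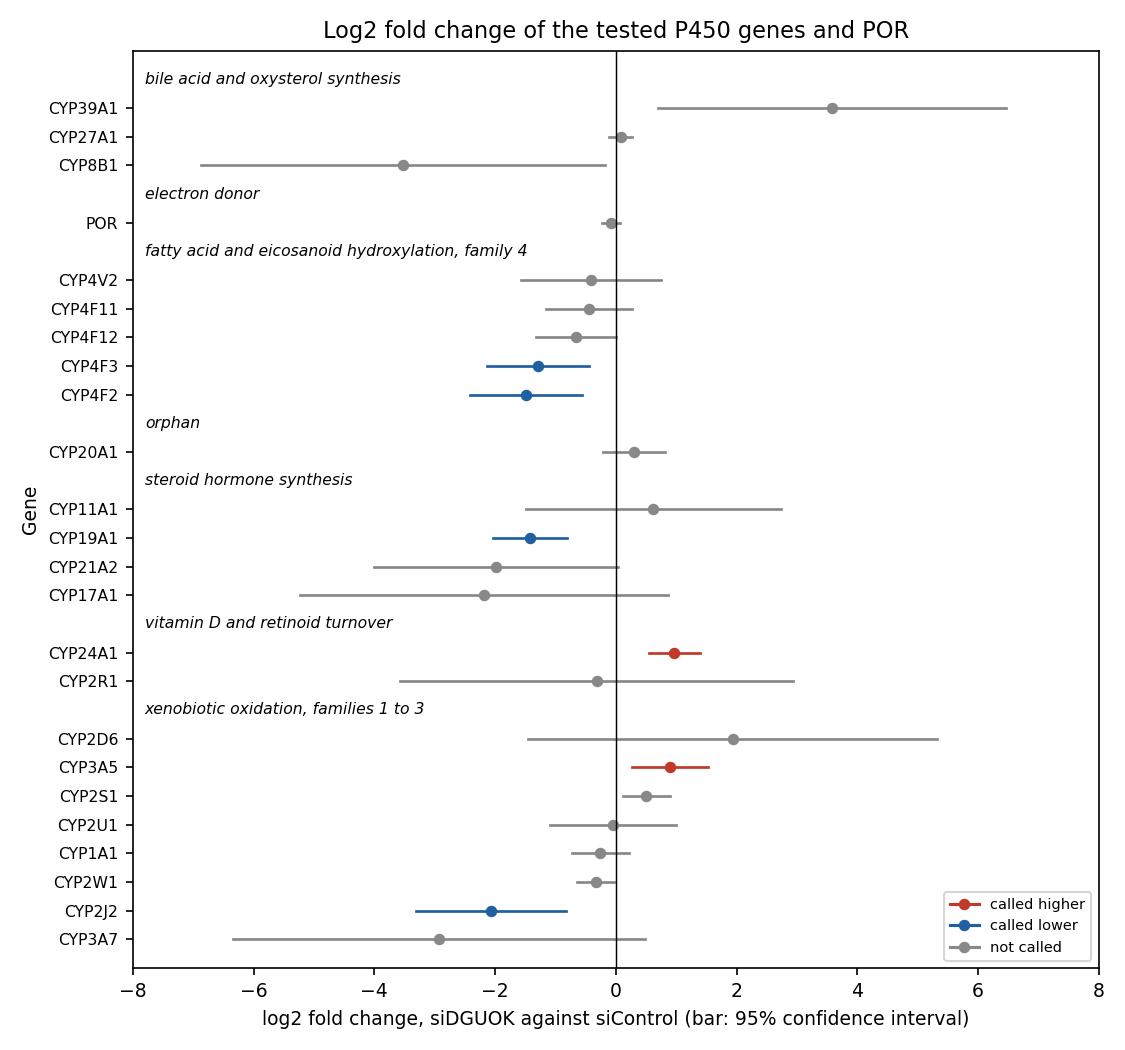
Log2 fold change, siDGUOK against siControl, of the 24 tested members by role, with 95% confidence intervals from edgeR's fit. Members called higher are red and those called lower blue, and the widest intervals belong to members with few counts such as CYP39A1, CYP8B1 and CYP3A7.

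Cytochrome b5, adrenodoxin and membrane partners supply P450 enzymes with electrons or bind them. Of their 10 tested genes, 1 was called higher and 1 lower, against 7.42% and 6.68% of all genes. At the adjusted p without the fold change threshold 7 passed, these 2 included, against 19.7% of all genes. The median log2 fold change of these genes was −0.30. CYB5A, the cytochrome b5 of the endoplasmic reticulum, stood at 94.4, 101 and 96.5 CPM in siControl replicates 1, 2 and 3 and at 57.1, 53.8 and 41.2 CPM in siDGUOK replicates 1, 2 and 3. The groups were far apart, with a log2 fold change of −0.94 (adjusted p = 2.51e-05 in edgeR's test). CYB5B, another cytochrome b5 gene, went the other way, from a mean of 208 CPM in siControl to 282 CPM in siDGUOK. Its groups did not overlap, and its log2 fold change of 0.44 (adjusted p = 0.00047 in edgeR's test) lay under the fold change threshold. CYB5R4, a fused cytochrome b5 and reductase, rose from a mean of 12.1 to 22.8 CPM with a log2 fold change of 0.92 (adjusted p = 0.00758 in edgeR's test), and its call was lost without siDGUOK replicate 2 (adjusted p = 0.0551 in edgeR's fit). On the mitochondrial side, the adrenodoxin gene FDX1 stood at a mean of 23.9 CPM in siControl and 20.5 CPM in siDGUOK (log2 fold change −0.22, adjusted p = 0.525 in edgeR's test). FDXR, its reductase, had a log2 fold change of −0.49 (adjusted p = 0.0102 in edgeR's test) and lay just under the fold change threshold. FDXR was called without siControl replicate 1, at −0.61, and without siDGUOK replicate 3, at −0.55.

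Heme synthesis and breakdown held 12 tested genes, of which 0 were called higher and 2 lower, against 7.42% and 6.68% of all genes, with a median of −0.12. ALAS1, the rate-limiting enzyme of heme synthesis in liver, stood at 44.4, 37.0 and 40.4 CPM in siControl replicates 1, 2 and 3 and at 33.7, 36.5 and 48.0 CPM in siDGUOK replicates 1, 2 and 3. The groups overlapped (log2 fold change −0.04, adjusted p = 0.906 in edgeR's test). ALAD, the next enzyme of the pathway, fell by 0.74 on the log2 scale, from a mean of 63.6 to 38.2 CPM (adjusted p = 0.000538 in edgeR's test). HMOX1, which breaks heme down, fell by 1.09 on the log2 scale, from a mean of 65.9 to 30.9 CPM (adjusted p = 0.000236 in edgeR's test). Both genes were lower in each siDGUOK library than in each siControl library.

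In the axis of the aryl hydrocarbon receptor, 1 of 5 tested genes was called, against 14.1% of all genes. AHR itself had a log2 fold change of 0.35 (adjusted p = 0.117 in edgeR's test), from a mean of 38.4 to 48.8 CPM. TIPARP, a target of the receptor that also responds to other signals, was called higher with a log2 fold change of 0.74 (adjusted p = 0.0234 in edgeR's test), and its call was lost without siControl replicate 3 (adjusted p = 0.101 in edgeR's fit) or siDGUOK replicate 2 (adjusted p = 0.124 in edgeR's fit). CYP1A1 was not called.

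Of 16 tested nuclear receptors and liver factors, 1 was called higher and 4 lower, against 7.42% and 6.68% of all genes, with a median of −0.27. NR1I2, the gene for PXR, stood at 18.3, 15.6 and 12.2 CPM in siControl replicates 1, 2 and 3 and at 22.6, 27.7 and 41.8 CPM in siDGUOK replicates 1, 2 and 3. Every siDGUOK library was above every siControl library, and the log2 fold change was 0.99 (adjusted p = 0.0046 in edgeR's test). NR1I2 was called in each fit that left out 1 library, with values from 0.69 to 1.15. NR1I3, the gene for CAR, had 0, 15 and 1 counts in siControl and 0, 3 and 14 counts in siDGUOK replicates 1, 2 and 3 and was not tested.

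The 4 factors called lower were NR1H4, HNF4A, CEBPA and ONECUT1. NR1H4, the bile acid receptor FXR, stood at 33.1, 20.3 and 20.8 CPM in siControl replicates 1, 2 and 3 and at 7.997, 7.02 and 8.01 CPM in siDGUOK replicates 1, 2 and 3. All siDGUOK libraries lay close together and below the siControl libraries (log2 fold change −1.69, adjusted p = 5.19e-05 in edgeR's test). NR0B2, the repressor SHP that FXR induces, had a log2 fold change of −0.36 (adjusted p = 0.0269 in edgeR's test), under the fold change threshold. HNF4A fell by 0.51 on the log2 scale, from a mean of 246 to 173 CPM (adjusted p = 0.000207 in edgeR's test). It was close to the fold change threshold, at −0.46 and not called without siControl replicate 1 and at −0.47 and not called without siDGUOK replicate 3. CEBPA and ONECUT1 had log2 fold changes of −1.12 and −1.94. Among the factors not called, NR5A2 had a log2 fold change of 2.37 (adjusted p = 0.222 in edgeR's test) and CEBPB one of 0.26 (adjusted p = 0.0954 in edgeR's test), both with groups that did not overlap.

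**Figure D4:**
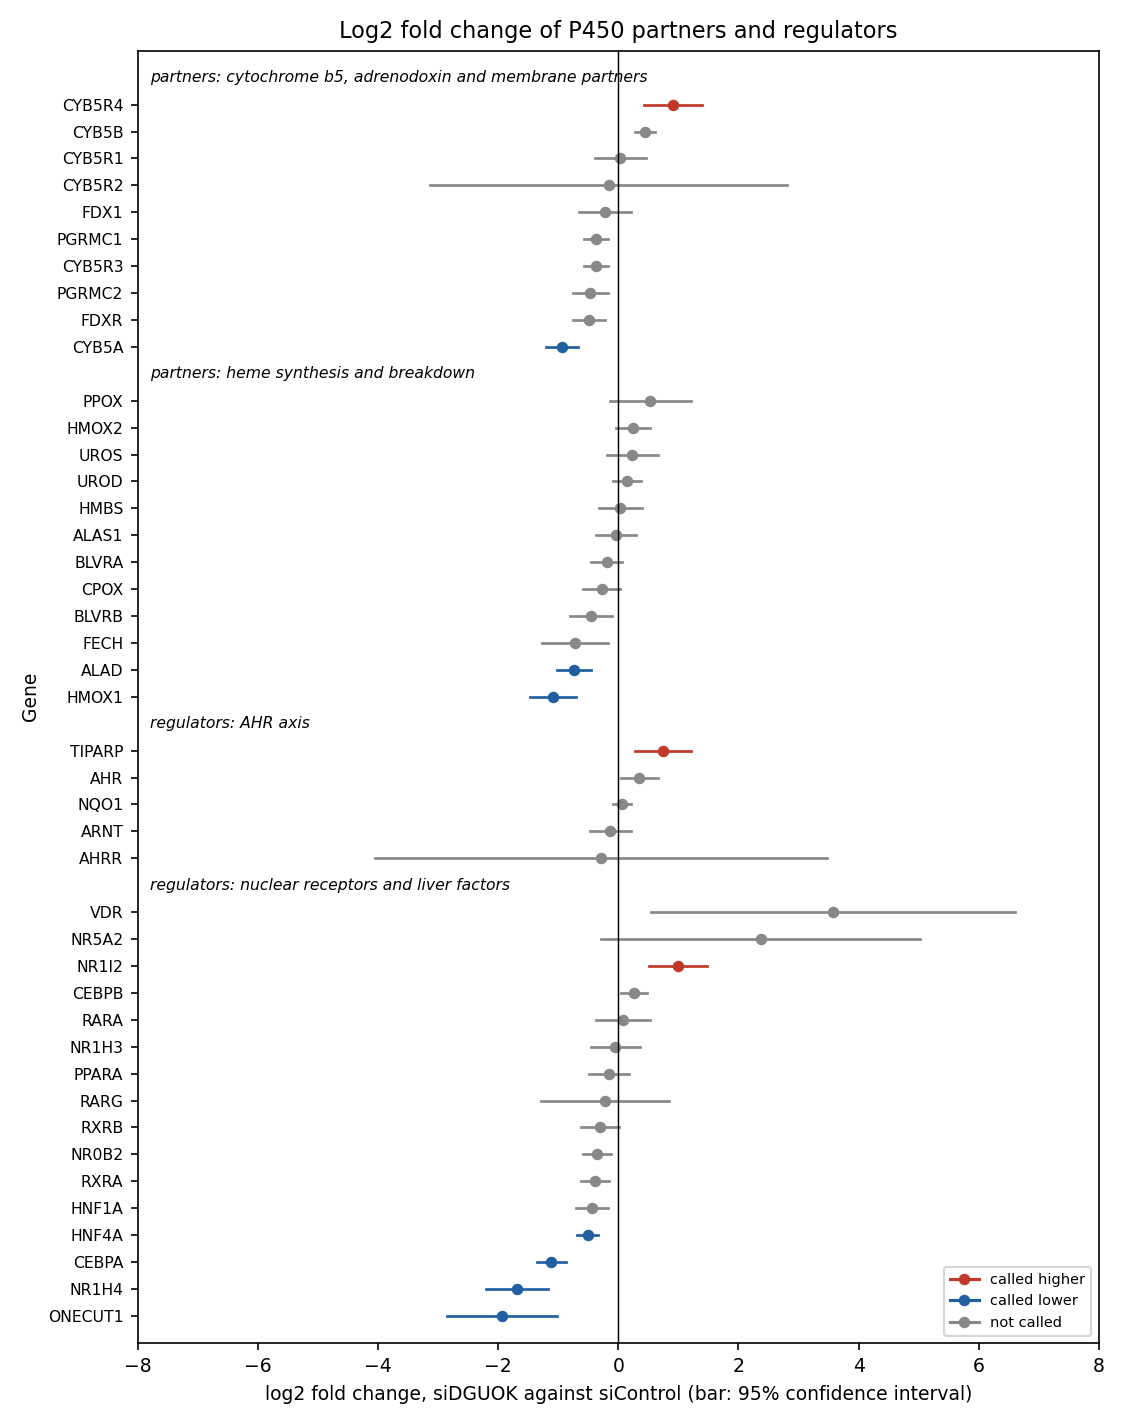
Log2 fold change, siDGUOK against siControl, of the tested partner and regulator genes, with 95% confidence intervals from edgeR's fit. CYB5R4, TIPARP and NR1I2 were called higher, and CYB5A, ALAD, HMOX1, HNF4A, CEBPA, NR1H4 and ONECUT1 lower.

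CYP51A1, the sterol demethylase of cholesterol synthesis that the choice of members left out, stood at 46.5, 48.4 and 42.7 CPM in siControl replicates 1, 2 and 3 and at 24.7, 21.7 and 24.8 CPM in siDGUOK replicates 1, 2 and 3. The groups did not overlap, with a log2 fold change of −0.95 (adjusted p = 0.000157 in edgeR's test).

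**Figure D5:**
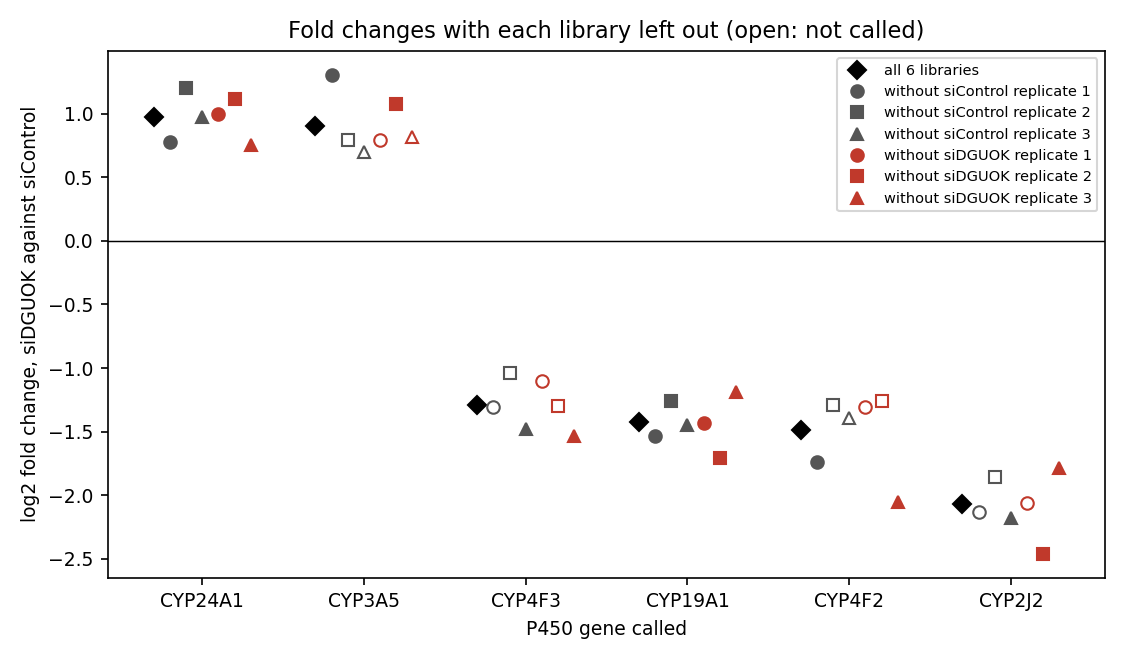
Log2 fold change, siDGUOK against siControl, of the 6 called P450 genes in edgeR's fit of all 6 libraries and in the fits that leave out 1 library, with open symbols where the gene was not called. The direction held in each of these fits, and CYP24A1 and CYP19A1 were called in all of them.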

How the data were processed

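RNA of 3 siControl and 3 siDGUOK samples of HepG2 cells was sequenced, and the deposited values are raw counts. Before counting, the authors took out tRNA, rRNA, adapter and spike-in reads, used STAR 2.6.1 on GRCh38 and discarded reads of low complexity. Their featureCounts 1.6.5 defaults ignore strand and skip multi-mapping reads. The counts were analysed here in R 4.3.3 with edgeR 4.0.16 (filterByExpr with a minimum count of 10, TMM, robust quasi-likelihood fit, condition only), adjusting p-values over 14476 genes. CPM per kb used exon lengths of another annotation of the same build. The rule for named genes took called members, the 6 uncalled ones of highest level per length, those whose groups did not overlap, members the study lists, untested members by count, and partner and regulator genes called or chosen by role. VDR and CYB5B were named after their values were seen. The members and lists were chosen with earlier results of these data known. Alternatives were RLE and upper-quartile normalization, DESeq2 1.42.0, other filters and thresholds, a replicate block, each library left out, and only siDGUOK replicate 3 in its group, which was chosen after seeing the data.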

Additional observations from a re-analysis of the deposited data

How the results depend on the processing

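In the fits that left out 1 library, 2 to 6 P450 members were called, 1 to 3 higher and 1 to 4 lower. All genes called ran from 1704 to 1935 in these fits. The median log2 fold change of tested P450 members was −0.0693 without siControl replicate 2 and −0.50 without siDGUOK replicate 3. It was −0.21 with DESeq2's shrunken fold changes and −0.12 with only siDGUOK replicate 3 in its group, a setting chosen after seeing the data. There 3 members were called, 1 higher and 2 lower, and with 1 siDGUOK library these calls rest on the spread of the siControl libraries alone. RLE and upper-quartile normalization and the replicate block each called the same 6 members. For all genes called, the replicate block gave 2077 and a log2 fold change threshold of 1 gave 819, beside 2041. DESeq2 called 8 members and 2174 of all genes, or 7 members and 1979 genes with shrunken fold changes. The 6 members of the main fit were among them each time. With the threshold of 1, edgeR's test called 0 members higher. Of 43 partner and regulator genes tested, 10 were called, where 14.1% of all genes were. The threshold of 1 left 4 of them, beside 819 of all 14476 genes. Without a fold change threshold 18 passed, or 41.9%, against 19.7% of all genes. Over the named genes and settings, the call was unchanged 1353 times, gained 36 times and lost 41 times, while values could move without a change of call.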

Other observations

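The count table also lists 28 P450 genes of other biotypes, mostly pseudogenes. Of these 2 were tested and 0 were called. CYP21A1P, the pseudogene of CYP21A2, had 63, 53 and 11 counts in siControl replicates 1, 2 and 3 and 29, 16 and 31 counts in siDGUOK replicates 1, 2 and 3. CYP4F23P had 3, 0 and 0 counts in siControl and 0, 0 and 30 counts in siDGUOK, all of the latter in replicate 3. CYP2D7 had 14, 0 and 1 counts in siControl and 4, 0 and 33 counts in siDGUOK replicates 1, 2 and 3, so its highest count was not in the library with the highest count of CYP2D6.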
